A study of Drosophila melanogaster with 2 samples.

Results

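The strongest cis insulation sites of the autosomal arms are the 4 kb stretches of chromosomes 2 and 3 across which a homolog made the fewest contacts with itself, relative to the contacts on either side. They were chosen from the cis read pairs of both replicates, pooled, with the homologs summed and pairs under 3 kb left out. For each bin, the pairs that joined the 10 bins on its left to the 10 bins on its right were counted as crossing pairs, and the cis score is this number divided by the mean number of pairs within the left and the right window. A bin was scored where all 21 bins held at least 50 pair ends, and a site is a bin with the lowest score within 10 bins either side that also lies in the lowest 5% of all scores. Of 9196 scored bins, 599 were such minima and 138 were sites, which is 1.50% of the scored bins. Only 38.1% of the 24153 bins of 2L, 2R, 3L and 3R were scored, so the sites come from the better covered stretches of these arms.

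Hi-C read pairs were measured in F1 hybrid embryos 2 to 4 h after egg laying, in 2 biological replicates, from a cross of DGRP-057 females with DGRP-439 males, both inbred lines of the Drosophila Genetic Reference Panel. No embryos carried another genotype or treatment, so the sites were set against all scored bins and not against another condition. Each library averages over the nuclei of many whole embryos, and the values do not separate cell types or nuclei. A pair was called cis where both ends fell on the same homolog, and trans-homolog where they fell on the same arm of different homologs.

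Chromosomes fold into domains, stretches that contact themselves more than their neighbours, and the borders between domains appear in Hi-C maps as positions that few contacts cross. In Drosophila, such borders often lie at active genes and at elements bound by insulator proteins. Homologous chromosomes of Drosophila also pair in somatic cells, beginning in the early embryo, which allows the question whether contacts between homologs stop at the same positions as contacts within a homolog. Because the cis score chose the sites, their cis scores, and every other cis count at up to 80 kb, are given only as a description. Trans-homolog pairs, cis pairs at longer separations and the replicate that was not used for a choice are other measurements.

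On the 4 arms the number of sites was 25 on 2L, 29 on 2R, 35 on 3L and 49 on 3R, or 1.10%, 1.49%, 1.52% and 1.83% of the scored bins of each arm. Their cis scores had a median of 0.259 and ran between 0.117 and 0.3155, against a median of 0.712 in all scored bins. The limit of the rule stood at 0.316. Just inside it lay chr3R:16924001-16928000 with a score of 0.314 and chr2R:10656001-10660000 with 0.3155 (dm3), and just outside it lay chr3L:648001-652000 with 0.3163 and chr2R:6320001-6324000 with 0.3166. The trans-homolog scores were 0.379 and 0.373 just inside and 0.3185 and 0.297 just outside. The sites next to the limit thus hardly differed from the minima that were left out, and the 138 sites are the low end of a continuous range.

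The lowest cis score of all belonged to chr3R:17204001-17208000. It was 0.121 in replicate 1 and 0.112 in replicate 2, from 203 crossing pairs against 1850 pairs within the left window and 1633 within the right. The same bin also had the lowest pooled trans-homolog score of any scored bin, 0.0695, with 0.0526 in replicate 1 and 0.0828 in replicate 2, with 9 crossing trans-homolog pairs against 119 on the left and 140 on the right. The 95% exact binomial interval of the pooled value, 0.0314 to 0.134, covers counting error only, as do all intervals below. After iterative correction, described below, its scores were 0.204 in cis and 0.186 between homologs, other sites had lower values of each, and the bin was not a site of the corrected maps. It therefore stood at the bottom of both measures only in the raw pairs.

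The next lowest cis scores on 3R were those of chr3R:4636001-4640000, at 0.139 and 0.153 in replicates 1 and 2, and of chr3R:25316001-25320000, at 0.162 and 0.158. Their trans-homolog scores were 0.286 (0.125 to 0.578) and 0.162 (0.103 to 0.244). The second of them was lopsided, with 489 cis pairs in its left window and 4463 in its right.

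On 3L the lowest cis scores were those of chr3L:16404001-16408000, at 0.1575 and 0.157 in replicates 1 and 2, of chr3L:1568001-1572000, at 0.1545 and 0.171, and of chr3L:13032001-13036000, at 0.163 and 0.181. The trans-homolog scores of these bins were 0.351 (0.224 to 0.530), 0.293 (0.213 to 0.397) and 0.217 (0.101 to 0.418). The intervals overlap, so the order of these 3 sites in trans-homolog contacts was not resolved at this depth.

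On 2R the lowest cis scores were those of chr2R:9828001-9832000, at 0.166 and 0.164, of chr2R:3368001-3372000, at 0.200 and 0.186, and of chr2R:9440001-9444000, at 0.197 in both replicates. On 2L they were those of chr2L:9892001-9896000, at 0.153 and 0.144, of chr2L:16260001-16264000, at 0.1645 and 0.201, and of chr2L:18704001-18708000, at 0.219 and 0.222. In cis score, which chose them, the replicates lay close at these 12 sites. In trans-homolog score they ran from 0.198 in both at chr2R:9828001-9832000 to 0.122 and 0.326 at chr3L:13032001-13036000. The pooled trans-homolog scores of the 6 sites on chromosome 2 ran between 0.198 and 0.448.

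**Figure D1:**
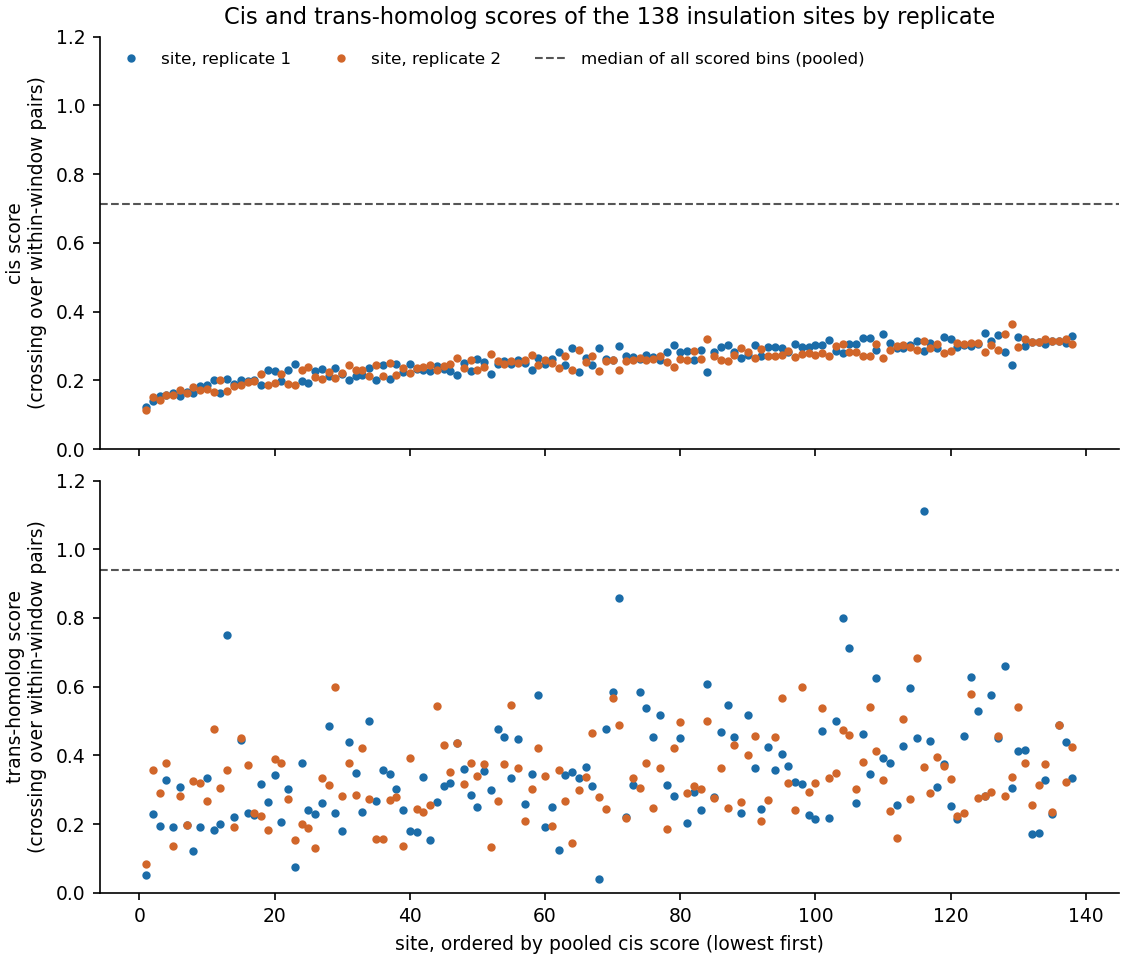
Cis score (top) and trans-homolog score (bottom) of each of the 138 sites in replicate 1 (blue) and replicate 2 (orange), ordered by pooled cis score. Scores have no unit, and the dashed line is the pooled median of all scored bins, 0.712 for cis and 0.939 for trans-homolog pairs. All sites lie under the line in cis, as the rule requires, and 1 site lies above it in trans-homolog pairs in replicate 1.

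The coverage of the bins beside the sites differed from that of the sites. The bins 4 kb to the left and right of a site, where scored (130 and 123), held a median of 457.5 and 521 cis pair ends. The sites themselves held 821 and all scored bins 790. Both neighbours held fewer pair ends than the site at 74 of 138 sites, or 53.6%, against 31.6% of scored bins. Short cis pairs, under 1 kb, showed the same shape, with 993 and 1163 in the neighbouring bins, 1747 in the sites and 1542 in all scored bins. The score leaves out the bin itself and counts its neighbours, so these pair ends enter the crossing pairs of the site, in cis and between homologs alike.

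The scores were therefore also computed after iterative correction, which scales every bin to the same total. The corrected trans-homolog, pairing and long-range values, but not the number of sites in the corrected maps, were added after the dip in pair ends was seen. In the corrected maps the rule gave 163 sites. Of the 138 sites, 63 were again sites in the same bin, 92 lay within 1 bin of one, and 99 stayed in the lowest 5% of scored bins. The corrected cis score of the 138 sites had a median of 0.323, against 0.725 in all scored bins, and no site exceeded 0.581. Among the 12 sites named above, 3 were sites of the corrected maps, namely chr2R:9828001-9832000, chr2R:3368001-3372000 and chr3R:25316001-25320000, and the corrected cis scores of the 12 ran between 0.1965 and 0.407. As a group the sites thus stayed below all scored bins after correction, while many moved to another bin or above the limit.

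Contacts between homologs were also low across the cis sites. The trans-homolog score, formed like the cis score from trans-homolog pairs, had a median of 0.327 at the sites, against 0.939 in all scored bins. The medians of the replicates were 0.3315 and 0.320 at the sites (0.326 ± 0.008, SD, n = 2), against 0.921 and 0.941 in all scored bins (0.931 ± 0.014). The difference of the log2 medians was −1.52, and it was −1.47 in replicate 1 and −1.56 in replicate 2, so that it far exceeded the spread between replicates. After correction with the bin weights of the cis maps the medians were 0.406 at the sites and 0.945 in all scored bins, a difference of −1.22.

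Of the 138 sites, 82 lay in the lowest 5% of trans-homolog scores, a range that holds 5% of all scored bins, and 135 lay in the lowest 25% of scored bins, which holds 25%. All 138 lay below the median of all scored bins in the pooled data, where 50% of bins lie. In both replicates separately 137 sites lay below the median, against 40.7% of all scored bins, and no site lay above it in both. After correction, 133 sites lay below the median and 59 in the lowest 5%. The upper bound of the exact binomial interval lay below the median of all scored bins at 133 sites, or 96.4%, against 28.5% of all scored bins.

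Both parts of the trans-homolog score differed at the sites. Crossing trans-homolog pairs numbered a median of 25.5 at the sites and 50 in all scored bins. Within 1 window there were 78.75 at the sites and 57.5 in all scored bins. Together, the windows of a site held between 42 and 528 trans-homolog pairs, with a median of 182.5, so that the score of a single site carries a wide counting error. Between replicates, the trans-homolog scores of the sites had a Spearman rho of 0.37, and the pooled trans-homolog scores had a rho of 0.39 with the cis scores; these describe 138 sites that share the same 2 libraries.

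Homolog misassignment would turn cis pairs into trans-homolog pairs. Inward pairs of 300 to 600 bp can come from unligated fragments of 1 homolog. At the sites such pairs were trans-homolog in 263 cases for 165337 cis cases, or 0.159%, against 0.196% in all scored bins. Trans-homolog pairs numbered 4.87 for every 100 cis pairs at the sites. The 2 shares count pairs of different separations, and the part of misassignment in the trans-homolog scores was not tested.

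Among the 123 sites with at least 100 trans-homolog pairs in their windows, the lowest trans-homolog scores after that of chr3R:17204001-17208000 were those of chr2R:3952001-3956000 and chr2L:5040001-5044000. The first had 0.0750 in replicate 1 and 0.154 in replicate 2, from 10 crossing pairs against 86 on the left and 85 on the right. The second had 0.0408 and 0.280, from 8 crossing pairs, so its replicates stood far apart. Both remained sites in the corrected maps, with corrected trans-homolog scores of 0.173 and 0.144.

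The highest trans-homolog scores among these 123 sites were those of chr3L:19560001-19564000, chr3R:11620001-11624000 and chr3L:14936001-14940000. The first had 1.11 in replicate 1 and 0.367 in replicate 2, and it was the only site above the median of all scored bins in either replicate. The others had 0.857 and 0.488, and 0.800 and 0.475. At each of these 3 sites replicate 1 was the higher, and the pooled intervals of 0.4315 to 1.05, 0.423 to 1.05 and 0.440 to 0.928 overlapped. Their high values therefore rest mainly on replicate 1.

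**Figure D2:**
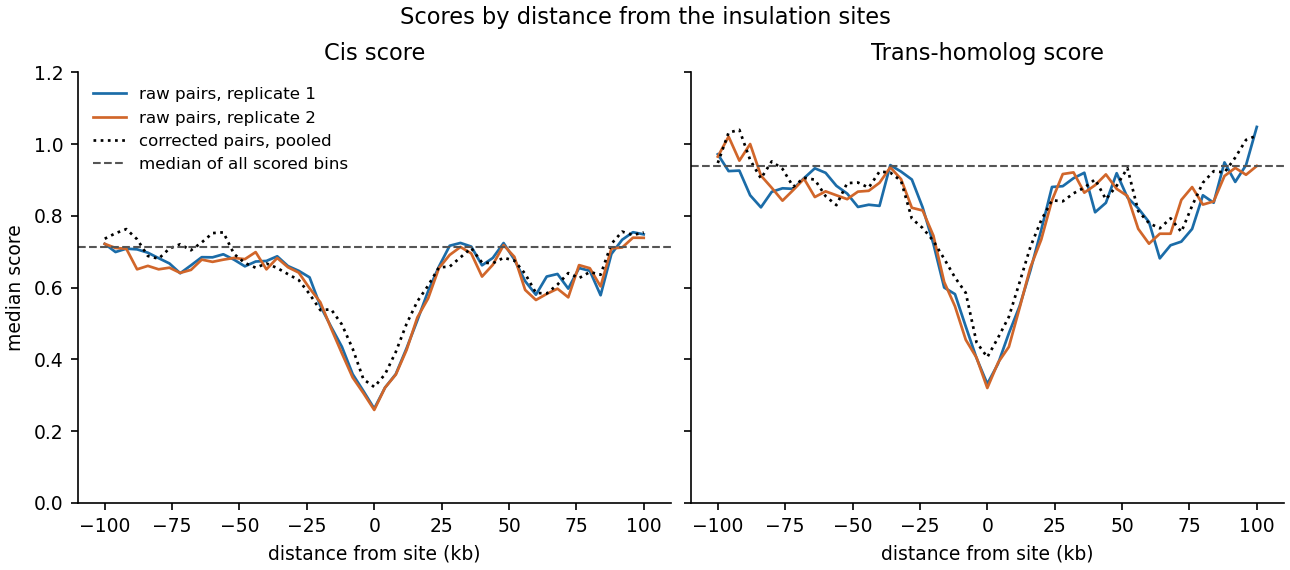
Median cis score (left) and trans-homolog score (right), without unit, by distance in kb from the 138 sites, in replicate 1 (blue) and replicate 2 (orange), and in the pooled corrected maps (dotted). At each distance only the sites whose bin there was scored are used. The dashed line is the median of all scored bins; both scores were lowest at the site, 0.259 in cis and 0.327 between homologs in the pooled data, and the corrected lines were less deep, at 0.323 and 0.406.

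With distance from the sites both scores rose over about the width of 1 window. Each median uses the sites whose bin at that distance was scored, which were 110 on the left and 111 on the right at 20 kb, and 59 and 55 at 100 kb. The median cis score was 0.561 at 20 kb to the left and 0.567 at 20 kb to the right, and 0.654 and 0.6985 at 28 kb. At 40 kb it was 0.650 and 0.649, and at 60 kb 0.683 and 0.584, still under the 0.712 of all scored bins. The median trans-homolog score was 0.727 and 0.749 at 20 kb, and 0.892 and 0.884 at 28 kb, against 0.939 in all scored bins. The trans-homolog dip was centred on the cis site, with 0.395 and 0.409 in the neighbouring bins and 0.327 in the site. This shape is set in part by the windows of 40 kb, which overlap in neighbouring bins.

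The same rule applied to the trans-homolog score, in the same 9196 scored bins, gave 150 minima of its own. These bins were scored by their cis pair ends, so no minimum number of trans-homolog pair ends was set. Of the 138 cis sites, 47 coincided with a trans-homolog minimum, and 69 lay within 1 bin of one. That is 50% of the cis sites, against 4.63% of all scored bins. Of the trans-homolog minima, 46.0% lay within 1 bin of a cis site, against 4.25% of all scored bins. Within 4 bins there were 85 cis sites, or 61.6%, against 12.9% of all scored bins. Both sets were called in raw pairs, where the dip in pair ends beside the sites enters both scores. The overlap was not computed in corrected maps, so the part of this dip in it was not tested.

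The pile-up of the 138 sites shows the pairs of both kinds over the mean of the arm at the same separation. Crossing cis pairs between bins 1 to 10 on each side, the pairs the rule used, stood at 0.534 ± 0.015 of the arm mean (SD, n = 2). Crossing trans-homolog pairs of the same bins stood at 0.548 ± 0.020, from 3986 pairs. Further out, between bins 11 to 25 on each side, crossing cis pairs stood at 0.659 ± 0.017 and crossing trans-homolog pairs at 0.621 ± 0.010, from 1911 pairs. Within the left and right windows the ratios were 1.42 and 1.42 for cis pairs, and 1.48 and 1.45 for trans-homolog pairs. The arm mean includes poorly covered bins, so that 1 is not the level of a scored bin. Cis and trans-homolog pairs gave ratios of like size in each of these areas.

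**Figure D3:**
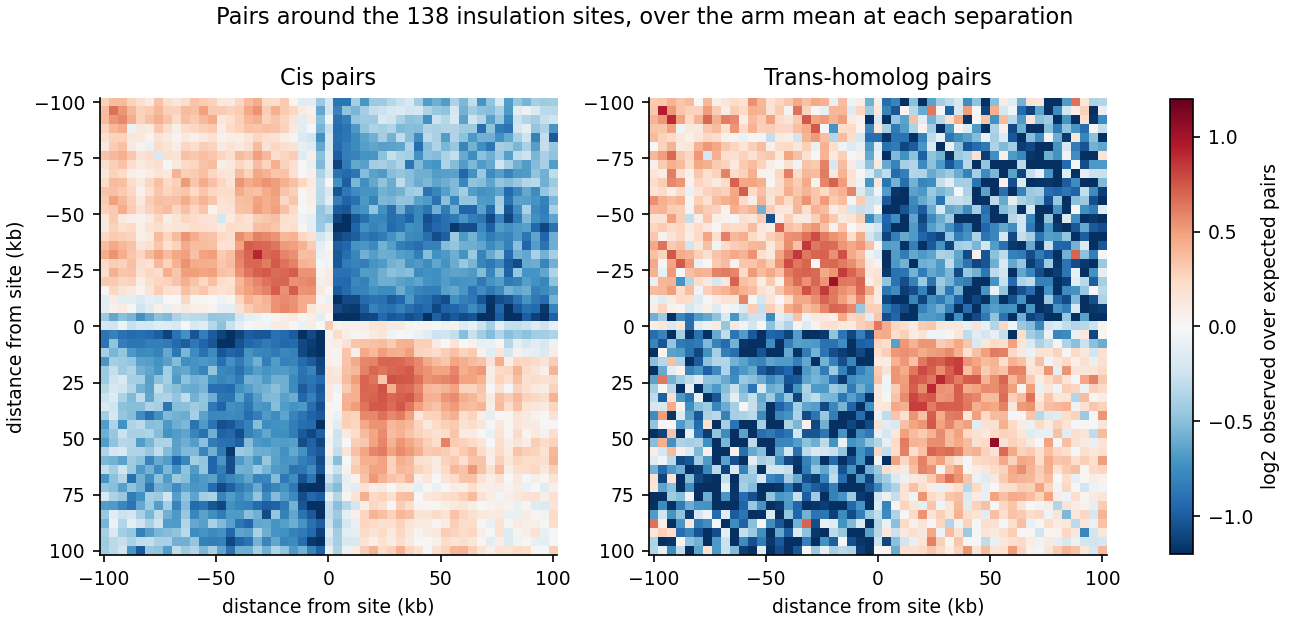
Cis pairs (left) and trans-homolog pairs (right) around the 138 sites in bins of 4 kb, as log2 of observed over expected pairs, where expected is the arm mean at each separation. Both axes give the distance from the site in kb and the map is mirrored on its diagonal; crossing pairs (upper right and lower left) were below the arm mean and pairs within 1 side above it, in cis and between homologs.

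Chosen in 1 replicate and measured in the other, the sites were again low in the raw pairs. The dip in pair ends beside the 138 sites was present in both replicates. The neighbouring bins held 217.5 and 234 in replicate 1, against 388.5 in the sites, and 243.5 and 274 in replicate 2, against 434. Correction was applied to the pooled maps only, so the part of this dip in the agreement of the replicates was not tested. Replicate 1 alone gave 94 sites and replicate 2 alone gave 120, and 72 of them matched within 1 bin, which is 76.6% of the sites of replicate 1 and 60% of those of replicate 2. The background was 4.46% of the bins scored in replicate 1 and 3.61% of those scored in replicate 2. The sites of replicate 1 had a median cis score of 0.266 in replicate 2, against 0.712 in all bins scored in both, and 79 of 93 lay in its lowest 5%, as did 4.79% of bins. The sites of replicate 2 had a median of 0.282 in replicate 1, against 0.719. Of 94 sites, 76 lay in its lowest 5%, as did 5.00% of bins. These 94 are the sites of replicate 2 that were also scored in replicate 1, out of 120, and 76.6% of them matched within 1 bin. No site that was scored in both replicates exceeded 0.393 in the replicate that had not chosen it. The trans-homolog score, too, was low in the replicate that had not chosen the sites, with differences of the log2 medians of −1.56 for the sites of replicate 1 and −1.48 for those of replicate 2.

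From maternal cis pairs alone the rule gave 108 sites and from paternal pairs alone 105, and 65 matched within 1 bin, or 60.2% of the maternal and 61.9% of the paternal sites. The background was 4.17% of the bins scored on the maternal homolog and 4.38% of those scored on the paternal homolog. The sites of each homolog were called in raw pairs, so the part of the dip in pair ends in this match was not tested. Of the 97 maternal sites that were scored on the paternal homolog too, 67.0% matched, and some of the others fell in bins without a paternal score. The mean share matched was 61.0%, and it was 47.0% in the same bin. Among sites scored on both homologs, 51.5% of the maternal and 53.2% of the paternal sites matched in the same bin. Whether the homologs shared most of the sites thus depended on the match allowed and on the sites counted. With a mapping quality of at least 30 it was 23.6%. There the summed homologs had 1465 scored bins and 24 sites, and each single homolog has fewer pairs. The value at that mapping quality may thus rest on few sites, and nothing about sharing is read from it. At the 138 sites the median score was 0.2525 on the maternal homolog and 0.272 on the paternal homolog.

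The size of the log2 difference between the homologs had a median of 0.16 at the sites and 0.11 in all scored bins, where the sites also had fewer crossing pairs. The signed maternal minus paternal log2 score had a median of −0.13 at the sites, with −0.11 in both replicates, against −0.03 in all scored bins. It had the same sign in both replicates at 89 sites, or 64.5%, against 59.9% of all scored bins, with the maternal score lower at 69 sites, or 50%, against 35.5% of all scored bins, and the paternal score lower at 20 sites, or 14.5%, against 24.4%. No site differed by 1 log2 unit or more in both replicates, nor did any other scored bin (0% of 9196). Read ends of the maternal homolog made up a median of 50.3% at the sites and 51.0% in all scored bins.

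The pairing level was higher at the sites than in all scored bins, but its divisor holds cis pairs that the rule chose to be few, so it is given only as a description. This level, taken as trans-homolog pairs per 100 cis pairs in the 28 kb around the bin, had a median of 4.87 at the sites and 4.33 in all scored bins. The trans-homolog pairs themselves numbered a median of 27 at the sites and 28 in all scored bins, and the cis pairs 527.5 at the sites and 648 in all scored bins, so the ratio was higher with fewer cis pairs and not with more trans-homolog pairs. The pairing level was 5.27 in replicate 1 and 4.46 in replicate 2 at the sites (4.86 ± 0.57, SD, n = 2), against 4.67 and 3.97 in all scored bins (4.32 ± 0.49). The replicates differed more from each other than the sites did from all scored bins, but the difference had the same direction and nearly the same size in each, 0.17 on the log2 scale in both. In 12 kb it was 0.47 and in 84 kb 0.04, and it was 0.01 with a mapping quality of at least 30.

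The pairing level exceeded the median of all scored bins in both replicates at 57 sites, or 41.3%, against 34.1% of all scored bins, and fell short of it in both at 21 sites, or 15.2%, against 34.1%. The tenth of scored bins with the highest pairing level held 24 sites, or 17.4%, against 10% of all scored bins. The tenth with the lowest pairing level held 2 sites, or 1.45%, against 10%. Since the divisor was part of the choice, nothing about homolog contact is read from these counts. Among crossing pairs alone the ratio was 6.24 at the sites and 6.09 in all scored bins, and within the windows it was 4.83 and 4.54.

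**Figure D4:**
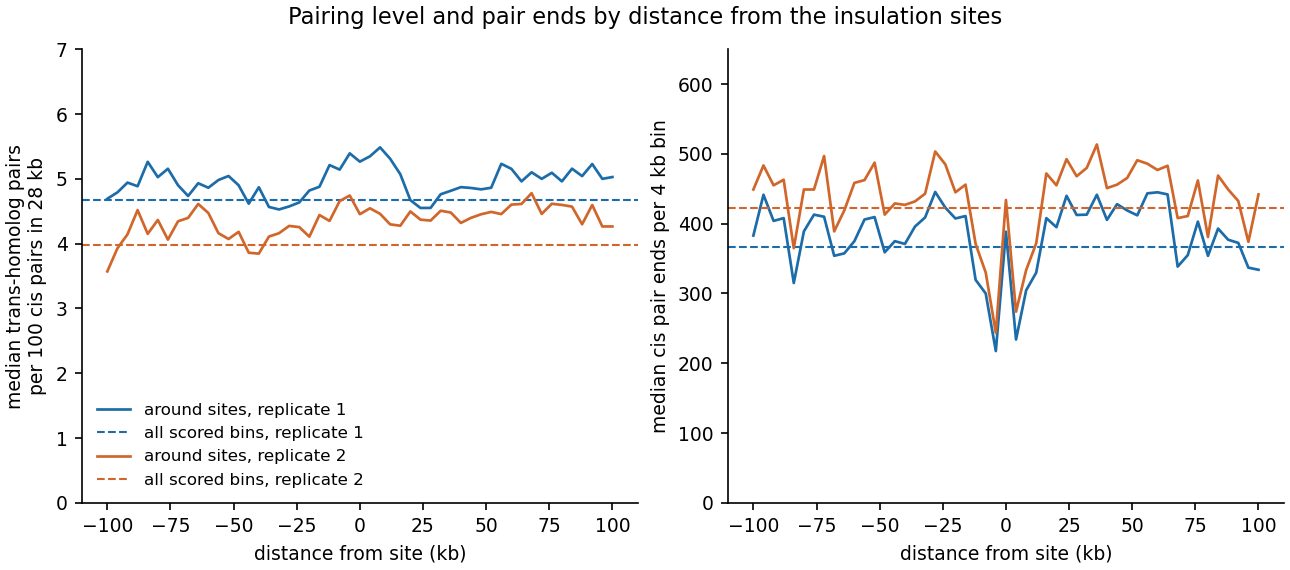
Median trans-homolog pairs per 100 cis pairs in 28 kb (left) and median cis pair ends per 4 kb bin (right) by distance in kb from the 138 sites, as solid lines for replicate 1 (blue) and replicate 2 (orange). At each distance only the sites whose bin there was scored are used. Dashed lines are the medians of all scored bins in the same replicate; the pairing level was above its line at the sites in both replicates, and pair ends dipped in the bins beside the sites, to 217.5 in replicate 1 and 243.5 in replicate 2 on the left.

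The sites with the lowest pairing level were chr3R:16368001-16372000, chr3L:20704001-20708000 and chr2R:13756001-13760000. They had 1.27, 2.27 and 2.66 trans-homolog pairs per 100 cis pairs, and the first 2 rest on 2 and 3 trans-homolog pairs in 28 kb. The third rests on 29 trans-homolog pairs for 1092 cis pairs, at 2.90 in replicate 1 and 2.43 in replicate 2, so of the 3 it is the one measured with some depth.

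The sites with the highest pairing level were chr2L:20792001-20796000, chr3R:2588001-2592000 and chr2R:2084001-2088000, each of which is the scored site nearest to the centromere on its arm. The first had 12.6 in replicate 1 and 9.62 in replicate 2, from 60 trans-homolog pairs for 550 cis pairs. The second had 9.65 and 10.5, from 27 trans-homolog pairs for 266 cis pairs. The third had 9.52 and 9.47, from 15 trans-homolog pairs for 158 cis pairs. On 3L the site nearest to the centromere was chr3L:20704001-20708000, which is among the 3 sites with the lowest level, at 2.27. The 3 sites with the highest level exceeded the median of all sites in both replicates, but the same pairs had chosen them, so this is a description only.

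Only a few sites marked a step in pairing. The ratio of trans-homolog to cis pairs differed by 1 log2 unit or more between the left and right windows, in the same direction in both replicates, at 2 sites, or 1.45%, against 2.52% of all scored bins. At chr2L:4460001-4464000 it was 2.13 per 100 cis pairs on the right and 6.52 on the left in replicate 1, and 2.44 and 5.67 in replicate 2. At chr2L:18860001-18864000 it was 5.43 on the right and 11.2 on the left in replicate 1, and 4.71 and 10.4 in replicate 2. Both were named after their values were seen. The median size of the step was 0.26 on the log2 scale at the sites and 0.30 in all scored bins, so the sites did not exceed all scored bins in either.

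Cis pairs beyond the range of the rule were also fewer across the sites, out to about 400 kb. For pairs of 84 to 200 kb, the number centred on and crossing the site was 0.659 of the arm mean at the sites and 0.929 in all scored bins, with 0.676 and 0.661 in the replicates at the sites and 0.943 and 0.9385 in all scored bins. It lay below the median of all scored bins in both replicates at 94 sites, or 68.1%, against 41.1% of all scored bins. For pairs of 200 to 400 kb the medians were 0.796 at the sites and 0.955 in all scored bins, and 64 sites, or 46.4%, lay below the median in both replicates, against 37.6%. For pairs of 400 kb to 1 Mb both medians were 1.01, with 53 sites, or 38.4%, against 35.2%. At 84 to 200 kb a site had a median of 23 such pairs, so this measure describes the sites together and not one by one.

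**Figure D5:**
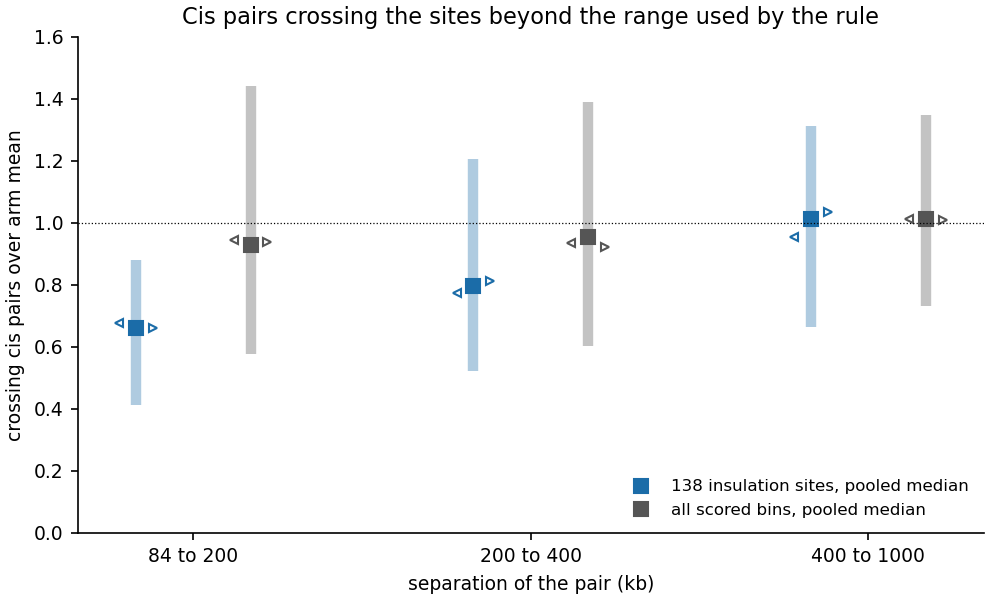
Cis pairs crossing the sites over the arm mean (y axis, ratio) in 3 ranges of separation (x axis, kb), for the 138 sites (blue, left of each pair) and all scored bins (grey, right). Squares are pooled medians, open triangles the medians of replicates 1 and 2, and bars run between the 25th and 75th percentiles; the sites lay below all scored bins at 84 to 200 kb (0.659 and 0.929) and at 200 to 400 kb (0.796 and 0.955), and not at 400 kb to 1 Mb.

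The neighbouring sites that were counted did not stand out as contact partners. Of 134 neighbouring pairs 101 were counted, and nothing is read about the others. At these 101, cis pairs between the 2 sites numbered 478. That was 0.849 of the arm mean at their separation, against 0.70 to 1.14 when 1 site was shifted by 4 to 40 kb. Trans-homolog pairs between them numbered 56, or 1.14 of the arm mean, against 0.69 to 1.24 when shifted. Unscored bins broke up most stretches, and 26 of 134 neighbouring pairs had every bin between them scored. These lay a median of 100 kb apart, and between 48 and 428 kb.

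Several sites fell in stretches that the study drew as maps or labelled by FISH. The 2R stretch of 16 to 18 Mb held 6 sites in 341 scored bins, where 1.50% of all scored bins are sites. The strongest of these in cis were chr2R:17364001-17368000, with cis scores of 0.205 in replicate 1 and 0.251 in replicate 2, and chr2R:16944001-16948000, with 0.263 and 0.229. Their trans-homolog scores were 0.309 (0.190 to 0.481) and 0.291 (0.2215 to 0.376), and both were also sites of the corrected maps. The others, chr2R:16136001-16140000, chr2R:16556001-16560000, chr2R:17140001-17144000 and chr2R:17208001-17212000, were not, and the last of them had a trans-homolog score of 0.555 (0.420 to 0.724) that became 1.05 after correction. Thus 2 of the 6 were sites both before and after correction.

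At chr2R:16556001-16560000 the maternal score was 0.239 in replicate 1 and 0.173 in replicate 2, against 0.360 and 0.302 on the paternal homolog. This was the third largest maternal difference of any site. The largest was at chr2R:4060001-4064000, with maternal scores of 0.203 and 0.243 against paternal scores of 0.444 and 0.383, and the next was at chr3R:5324001-5328000, with 0.197 and 0.194 against 0.332 and 0.316. At all 3 the sign was the same in both replicates, and they were named after their values were seen.

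A stretch of 3L that the study drew as a map held 3 sites in 202 scored bins, where 1.50% of all scored bins are sites. They were chr3L:9848001-9852000, chr3L:10656001-10660000 and chr3L:11196001-11200000. Their cis scores were 0.262 and 0.256 in replicates 1 and 2 for the first, 0.233 and 0.241 for the second, and 0.202 and 0.198 for the third. Their trans-homolog scores were 0.355 (0.254 to 0.485), 0.362 (0.231 to 0.549) and 0.230 (0.137 to 0.366). All 3 were also sites of the corrected maps, where their trans-homolog scores were 0.371, 0.412 and 0.181.

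Of the 6 segments labelled by Oligopaint probes, 5 held sites. There was 1 site in 51 scored bins of the bithorax complex segment, 4 in 176 of 2R16 and 2 in 54 of 3R19. The 69C segment had 1 in 128 and the 28B segment 1 in 49. Over all scored bins the share was 1.50%, and nothing about the segments is read from these few sites. The bin at the edge of the bithorax complex segment, chr3R:12480001-12484000, had cis scores of 0.193 and 0.239 in replicates 1 and 2. Its trans-homolog score of 0.215 rests on 7 crossing pairs, with an interval of 0.0833 to 0.4695. The bithorax complex holds the homeotic genes of the posterior segments, where a string of known boundary elements separates their regulatory domains. At a resolution of 4 kb with windows of 40 kb, most of these lie too close together to be told apart.

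The 69C segment held chr3L:12724001-12728000, with cis scores of 0.296 and 0.270 and a trans-homolog score of 0.343 (0.169 to 0.637). The 28B segment held chr2L:7496001-7500000, with cis scores of 0.302 and 0.265 and a trans-homolog score of 0.413 (0.315 to 0.534). Both were sites of the corrected maps as well.

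The 3R19 segment held chr3R:19596001-19600000 and chr3R:19876001-19880000, with trans-homolog scores of 0.282 and 0.274. After correction the first became 1.16 and the second 0.190, and only the second was a site of the corrected maps. The 2R16 segment held 4 of the 6 sites of the 2R stretch above. The 3R7 segment held none, but 6 of its 213 bins were scored, so its lack of sites comes with a lack of measured bins.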

How the data were processed

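The authors trimmed reads, aligned them with BWA 0.7.15 to an F1 diploid genome built on dm3, and removed duplicates; the deposited pairs files hold the 2 replicates apart and without normalization, and the replicates were pooled here to choose the sites. The deposited mapping quality is an aligner score, 1 to 60 in these pairs. Replicate 1 held 24390496 pairs, with 3743730 cis and 377133 trans-homolog pairs of at least 3 kb on the autosomal arms. Replicate 2 held 24659056, with 4295551 and 402818. Python 3.11.15, numpy 2.4.6, scipy 1.17.1 and pandas were used. The calling code was also run on simulated maps with planted sites, as a check of the code only, and nothing about the sites is read from it. The sites, segments and naming rule were chosen with earlier results of these data known. The text names the 3 lowest cis scores per arm, the bins next to the limit, the 3 extremes of trans-homolog score (at least 100 pairs) and of pairing level, and sites in the labelled segments. With 1 condition and 2 replicates no test was run. No annotation or genome of build dm3 was used here, so genes, promoters and sequences at the sites were not analysed. No replicates are paired between groups.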

Additional observations from a re-analysis of the deposited data

Results flagged for a closer look

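Arm X was left out of the rule. At the score limit of the autosomes it held 13 minima in 578 scored bins, a signal in data that the comparisons above do not use, given here as a value only.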

How the results depend on the processing

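No paired analysis was possible because the 2 replicates form 1 group. The planned annotation of the sites was not run. The number of sites, 138, became 24 (17 within 1 bin of one of the 138) with a mapping quality of at least 30, where 1465 bins were scored, 280 with windows of 5 bins, 229 with the lowest 10% and 27 with bins of 2 kb, where 2154 bins were scored. With single replicates it ran between 94 and 120. The trans-homolog log2 difference of −1.52 became −1.81 with a mapping quality of at least 30, −1.42 for pairs of at least 10 kb, −1.36 with the lowest 10% and −1.22 after correction, and ran between −1.50 and −1.46 in single replicates. The pairing level difference of 0.17 became 0.0095, 0.14, 0.15 and 0.19 under those settings in that order, 0.47 in 12 kb and 0.038 in 84 kb, and ran between 0.16 and 0.29 in single replicates. The long-range difference of −0.50 became −0.55 with a mapping quality of at least 30 and −0.55 after correction, −0.26 at 200 to 400 kb and −0.0013 at 400 kb to 1 Mb, and ran between −0.62 and −0.49 in single replicates. The mean share of sites matched between replicates, 68.3%, became 55.6% with a mapping quality of at least 30 and 74.9% within 4 bins. That between homologs, 61.0%, became 23.6% with a mapping quality of at least 30, where few sites were called, 69.5% within 4 bins and 47.0% in the same bin. No direction was reversed. The cause of these shifts was not tested. Depth limits single sites most, since the trans-homolog score of a site rests on 42 to 528 pairs.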
